A study of Mus musculus with 2 samples.

Results

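Blood clots through a cascade of proteases that ends in thrombin and fibrin, and the cells that line vessels hold this cascade in check. Tissue factor (F3) starts the cascade, factor VIII (F8) amplifies it as a cofactor, and von Willebrand factor (Vwf) carries factor VIII in plasma and ties platelets to a damaged wall. Tissue factor pathway inhibitor (Tfpi) blocks the start. Thrombomodulin (Thbd) turns thrombin into an activator of protein C, which the endothelial protein C receptor (Procr) holds at the cell surface. Tissue-type and urokinase-type plasminogen activators (Plat and Plau) make plasmin, which dissolves fibrin, and the urokinase receptor (Plaur) holds urokinase at the cell surface. In the liver, sinusoidal endothelial cells are known as a main source of factor VIII.

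These 9 genes were described in the 2 single-cell libraries of the series, among the 20468 genes listed for the normal library and the 20473 listed for the fibrosis library. They were listed by name, with no threshold on their values, though with earlier results of these data known. Each library came from the non-parenchymal cells of the liver of 1 male C57BL/6 mouse, aged 8 weeks per the labels. The normal mouse received olive oil, and the fibrosis mouse received carbon tetrachloride (CCl4), a hepatocyte poison that scars the liver, in 2 injections a week for 6 weeks. Hepatocytes were depleted by centrifugation, so the libraries do not show cells in the shares of the tissue. With 1 mouse in each condition no test between conditions is possible, and every difference below is a difference between 2 libraries.

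All 9 genes are annotated as protein coding in the mouse assembly GRCm38. F8 lies on the minus strand of chromosome X (75172715 to 75382615), Vwf on chromosome 6 (125546774 to 125686679) and F3 on chromosome 3 (121723537 to 121735048). Chromosome 2 holds Thbd (148404466 to 148408188, minus strand), Procr (155751117 to 155755471) and Tfpi (84432855 to 84476775, minus strand). Plat lies on chromosome 8 (22757727 to 22782844), Plau on chromosome 14 (20836660 to 20843385) and Plaur on chromosome 7 (24462484 to 24475968).

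After the mitochondrial filter 7471 normal and 6132 fibrosis cells remained. Clusters were named by marker genes, with the 9 genes and a list of 47 further coagulation genes held out of clustering and naming. The names mean only that a cluster held those markers, among its top genes against the other lineages or, for endothelium, within the lineage, hence "-like", and the genes that lead it within its lineage can be others. Liver sinusoidal endothelial cells (LSECs) were divided into zone 1-like cells near the portal inflow (331 normal and 212 fibrosis cells), zone 2/3-like cells towards the central vein (315 and 245), and LSECs that neither zone list marked, called unzoned (718 and 635). Portal endothelial-like cells numbered 364 and 101, and central endothelial-like cells 312 and 190. In the normal library each of these vessel classes joined 1 vessel sub-cluster and 1 adjoining sinusoidal sub-cluster (83 and 281 portal cells, 85 and 227 central cells), whereas in the fibrosis library each was 1 sub-cluster. The other classes were stellate-like (65 and 140), mesothelial-like (44 and 48), Kupffer-like (230 and 226), monocyte-like (123 and 326, the fibrosis cells joining a classical sub-cluster of 219 and a non-classical one of 107), type 1 dendritic-like (99 and 82), type 2 dendritic-like (170 and 116), plasmacytoid dendritic-like (145 and 108) and neutrophil-like cells (164 and 192). A scar-associated macrophage-like cluster of 212 cells was named in the fibrosis library and none in the normal library. Of the normal type 2 dendritic-like cells, 104 were led by Mpo, Elane and Prtn3, genes of granulocyte precursors that go against the name. Likewise, 100 of the 331 normal zone 1-like cells formed a sub-cluster with 1 zone 1 marker among its top genes, led mostly by metabolic genes of hepatocytes (such as Kmo and Ces1f), and 177 of the 718 unzoned cells one led by Crp and Bhmt2, also genes of hepatocytes. The 65 normal stellate-like cells were led within the mesenchyme by the chemokine genes Ccl2, Ccl5, Ccl4 and Ccl7. Their 15 stellate markers, none at 0, summed to 425.4 per 10000 (229.6 in the fibrosis class), and their 15 NK and T cell markers to 5.94, against 0.814 in the fibrosis stellate-like cells and between 0.876 and 1.13 in the normal endothelial classes.

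Levels are summed unique molecular identifiers (UMIs, counts of captured RNA molecules) of a gene per 10000 UMIs of the class, with exact Poisson 95% intervals in parentheses. These intervals and those of the ratios cover counting error only, not the spread between mice, and the libraries read the 3′ ends of transcripts, so levels of different genes are not compared. Free RNA gives UMIs in cells that do not express a gene. Levels are therefore set beside those of lymphoid-like cells (1336 normal and 1015 fibrosis cells, with medians of 3209 and 2337 UMIs) as a class in which most of these genes should be low. The 18 endothelial markers summed to between 145.0 and 288.3 in the normal endothelial classes and between 139.9 and 250.9 in the fibrosis ones, against 16.3 and 31.5 in lymphoid-like cells. Hepatocyte markers were above 0 in every class and summed to between 86.9 and 415.8 per 10000 in the normal classes but between 7.59 and 36.1 in the fibrosis classes. Cells in mixed, cycling or unnamed clusters (14.5% and 16.2%) entered no class. They held between 2.48% (F3) and 30.4% (Plau) of a gene's UMIs in the normal library and between 11.4% (F3) and 39.0% (Procr) in the fibrosis library.

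F8 was an endothelial transcript in both libraries, highest in zone 2/3-like LSECs, and its level was lower in every endothelial class of the fibrosis library. In the normal library its level was 12.3 (11.9 to 12.8) in zone 2/3-like LSECs, 10.3 (9.87 to 10.8) in central endothelial-like cells, 9.73 (9.42 to 10.0) in unzoned LSECs, 8.67 (8.25 to 9.11) in zone 1-like LSECs and 5.87 (5.57 to 6.18) in portal endothelial-like cells. Only the central and unzoned values, neighbours in this order, overlapped in their intervals. In the zone 1-like sub-cluster of 231 cells alone F8 was 9.28 (8.80 to 9.78), which overlapped the unzoned level, and in that of 100 cells led by hepatocyte genes it was 5.86 (5.06 to 6.75). Zone 2/3-like LSECs held 1.42 times the F8 level of zone 1-like LSECs (1.34 to 1.51). Among the vessel sub-clusters, F8 was 5.93 (5.32 to 6.60) in the central vein-like cells and 12.02 (11.5 to 12.6) in the sinusoidal cells that adjoined them. The corresponding fibrosis F8 levels were 7.15 (6.79 to 7.52) in zone 2/3-like, 6.06 (5.83 to 6.29) in unzoned and 5.13 (4.80 to 5.48) in zone 1-like LSECs. They were 4.50 (4.20 to 4.81) in central and 3.31 (2.94 to 3.72) in portal endothelial-like cells. Over all LSECs the F8 ratio of fibrosis to normal was 0.604 (0.583 to 0.625), and it lay between 0.565 and 0.623 in the portal class and the LSEC zones. In central endothelial-like cells it was 0.437 (0.403 to 0.473), and 0.758 when only the vessel sub-clusters were compared.

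The difference was seen across the cells. The median F8 level of a single LSEC was 8.56 in the normal library and 5.42 in the fibrosis one, and 41.0% of normal LSECs exceeded 10 per 10000 against 11.9% of fibrosis LSECs. When each cell was thinned to 1000 UMIs, at least 1 F8 UMI was left in 54.7% (52.0 to 57.4) of normal and 40.6% (37.7 to 43.6) of fibrosis LSECs. Without thinning the shares were 92.0% and 88.6%. The lymphoid-like shares after thinning were 5.10% and 6.98%. In lymphoid-like cells the F8 level was 0.465 (0.405 to 0.531) and 0.813 (0.707 to 0.929), so it was higher there in the fibrosis library while the endothelial level was lower. Stellate-like cells (0.430 and 0.261), Kupffer-like cells (0.185 and 0.257) and mesothelial-like cells (0.484 and 0.583) lay near or below these lymphoid levels.

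Vwf was highest in the vessel classes, and in the normal LSECs outside them it was at the level of lymphoid-like cells. In the normal library it stood at 8.44 (8.04 to 8.85) in central and 6.04 (5.74 to 6.36) in portal endothelial-like cells, but at 0.0773 (0.0590 to 0.0995) over all LSECs, the same as the 0.0796 (0.0561 to 0.110) of lymphoid-like cells within their intervals. In fibrosis LSECs it was 0.192, or 2.19 times (1.41 to 3.55) the lymphoid-like level of that library. This level was uneven among the LSECs. Of its 161 UMIs, zone 1-like LSECs held 54 and zone 2/3-like LSECs 10. A shallow unzoned sub-cluster of 116 cells, with no zone marker among its top genes, held a large part of the rest, as given below. The normal central vein-like sub-cluster carried most of it, at 26.2 (24.9 to 27.6), which was 17.8 times (15.4 to 20.7) the 1.47 (1.28 to 1.68) of the adjoining sinusoidal cells. The portal vessel-like sub-cluster held 12.9 (12.05 to 13.9), or 3.41 times (3.08 to 3.78) the 3.80 (3.52 to 4.09) of its adjoining cells.

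In the fibrosis library the Vwf level of portal endothelial-like cells was 7.66 (7.08 to 8.27), a ratio of 1.27 (1.16 to 1.39) to the whole normal portal class but 0.592 (0.533 to 0.658) to its vessel sub-cluster of 83 cells alone, so its direction turned with the cells compared. By contrast, the Vwf level of fibrosis central endothelial-like cells was 1.25 (1.10 to 1.42), a ratio of 0.148 (0.129 to 0.170). The central class lay above the portal class in the normal library and below it in the fibrosis library. The normal vessel sub-clusters alone had the same order as the whole normal classes, but the adjoining normal sub-clusters had that of the fibrosis library, with the portal side above the central side. Of the normal central endothelial-like cells 84 of 312 held more than 10 Vwf UMIs per 10000, against 9 of 190 in the fibrosis library. After thinning, 29.2% (24.2 to 34.5) of normal and 7.94% (4.51 to 12.8) of fibrosis central endothelial-like cells had a Vwf UMI, against 0.90% and 1.30% of lymphoid-like cells, and without thinning 45.2% and 30.0%. In portal endothelial-like cells these shares were 36.0% (31.1 to 41.2) and 48.5% (38.5 to 58.7) thinned, and 77.5% and 93.1% unthinned. The make-up of the central class differed between libraries, since the single fibrosis sub-cluster of 190 cells was named by central vein markers and no adjoining central-side sub-cluster was named beside it. Compared with the normal central vein-like sub-cluster alone, the ratio was 0.0477 (0.0415 to 0.0548), but compared with the normal central-side sub-cluster alone it was 0.851, and those levels, 1.25 and 1.47, overlapped in their intervals. The size of the Vwf difference therefore depends on which normal cells are the base. Over all endothelial-like cells the ratio was 0.355 (0.331 to 0.381).

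Other genes of the central class, chosen after their values were seen, are given beside Vwf. The Wnt ligand Wnt9b (4.12 and 3.95), the transcription factor Lhx6 (4.10 and 3.53) and the cadherin Cdh5 (8.78 and 8.69) differed less than Vwf between the central classes. Rspo3, a Wnt amplifier of the central vein, went from 22.3 to 13.2. The adhesion receptor Selp, stored with Vwf in endothelial granules, went from 3.60 to 1.76, and Edn1, the vasoconstrictor endothelin, from 3.15 to 1.07. Fmo2 went from 3.81 to 0.610, Bmp4 from 1.86 to 0.156 and Cyp1b1 from 1.05 to 0.0782. Wnt9b, Lhx6, Rspo3, Selp and Cyp1b1 were among the markers that served to name the class. All 9 of these genes were higher in the normal central vein-like sub-cluster than in the cells beside it, for example Edn1 (9.30 and 0.746), Bmp4 (4.29 and 0.903) and Wnt9b (8.64 and 2.35). Against that sub-cluster alone the fibrosis ratio was 0.458 for Wnt9b, 0.674 for Lhx6, 0.352 for Rspo3 and 0.88 for Cdh5. It was 0.237 for Selp, 0.115 for Edn1, 0.0486 for Fmo2, 0.0365 for Bmp4 and 0.0218 for Cyp1b1. The fibrosis levels of all 9 lay nearer to those of the normal central-side cells than to those of the central vein-like cells, for example for Rspo3 (16.3 central-side and 37.5 vein-like), Selp (2.10 and 7.43) and Fmo2 (0.376 and 12.6). The part that the make-up of the central class had in the Vwf ratio was not tested.

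Within the sinusoid the Vwf level was low but higher in fibrosis in zone 1-like LSECs, at 0.136 (0.0880 to 0.201) and 0.310 (0.233 to 0.404), a ratio of 2.28 (1.39 to 3.82), or 2.60 without the normal sub-cluster led by hepatocyte genes. Unzoned LSECs held 0.0572 and 0.214, of which a shallow fibrosis sub-cluster of 116 cells alone reached 2.61 (2.03 to 3.30). In zone 2/3-like LSECs only 13 and 10 UMIs were counted (0.0627 and 0.0477).

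**Figure D1:**
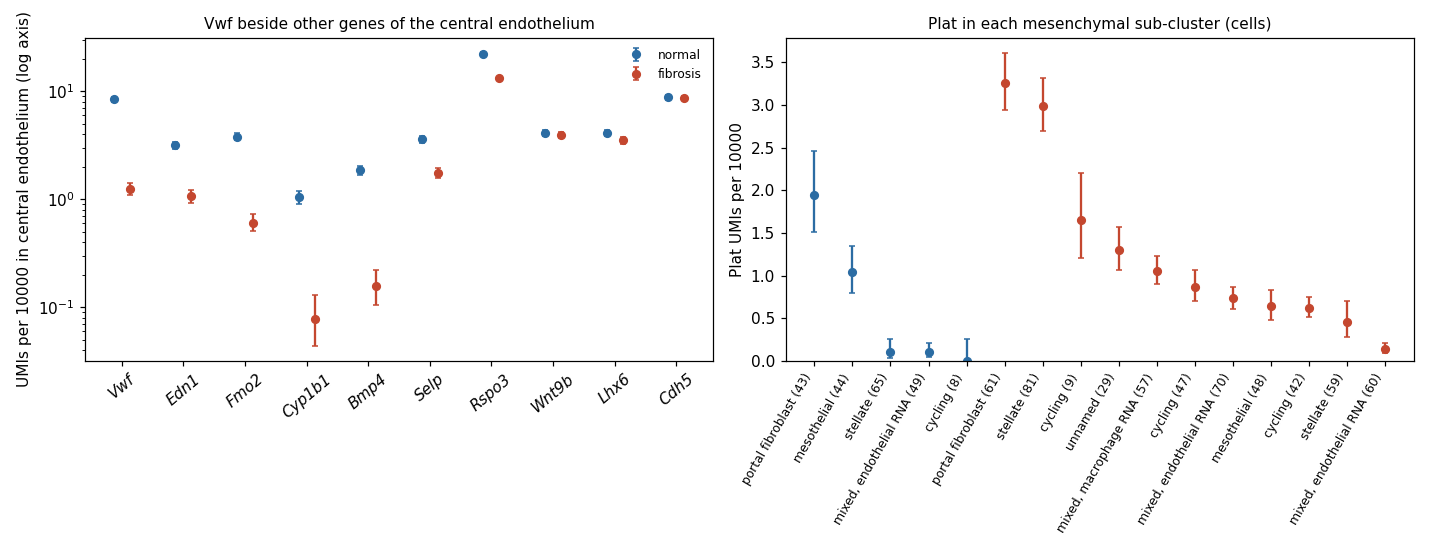
Left, levels of Vwf and 9 other genes in central endothelial-like cells of each library (log axis); right, levels of Plat in each mesenchymal sub-cluster, with its number of cells in parentheses. Both axes are UMIs per 10000 UMIs with exact Poisson 95% intervals, and Vwf goes from 8.44 to 1.25 on the left while the fibrosis portal fibroblast-like (3.26) and stellate-like cells (2.99, 81 cells) stand highest on the right.

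Thbd was higher in the portal and central classes than in the LSEC zones, and its level on the central side was higher in the fibrosis library. In the normal library this held for the adjoining sinusoidal sub-clusters of these classes too. The portal vessel-like sub-cluster had 1.22 times (1.085 to 1.36) the level of its adjoining cells, and the central vein-like one 0.946 times (0.849 to 1.05). The normal level was 8.48 (8.09 to 8.89) in central endothelial-like cells, 6.04 (5.74 to 6.35) in portal endothelial-like cells and 2.87 (2.64 to 3.11) in zone 2/3-like LSECs. Zone 1-like (1.64, 1.46 to 1.83) and unzoned LSECs (1.5, 1.38 to 1.63) came last, with overlapping intervals. In the fibrosis library the central class reached 16.7 (16.2 to 17.3), 1.97 times (1.86 to 2.09) its normal level, and zone 2/3-like LSECs reached 5.54 (5.22 to 5.86), a ratio of 1.93 (1.75 to 2.13). Both ratios lay just under 2, and against the normal central vein-like sub-cluster alone the central one was 2.05 (1.86 to 2.27). With a mitochondrial limit of 5%, however, only 24 fibrosis cells and no normal cells were named central endothelial-like, and the fibrosis level was 7.42, below the 8.48 of the normal class as reported. Portal endothelial-like cells held 6.39 (5.87 to 6.95), a ratio of 1.06 (0.958 to 1.17), or 0.916 (0.805 to 1.04) against the normal vessel sub-cluster alone, and both intervals hold 1. In zone 1-like and unzoned LSECs the fibrosis levels were 2.31 (2.09 to 2.55) and 1.98 (1.85 to 2.11), with ratios of 1.41 and 1.32. Both differences were smaller than that of the lymphoid-like level given below. With that level subtracted, both ratios turn below 1.

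The median Thbd level of a single central endothelial-like cell was 7.14 in the normal library and 15.3 in the fibrosis one. After thinning, 45.5% (39.9 to 51.2) of these cells had a Thbd UMI in the normal library and 73.5% (66.7 to 79.7) in the fibrosis library, against 1.65% and 9.87% of lymphoid-like cells. Without thinning the shares were 92.3% and 98.4%. In the normal library Thbd did not follow Vwf within the central class, with 8.15 (7.42 to 8.92) in the central vein-like and 8.61 (8.14 to 9.10) in the adjoining sub-cluster. The lymphoid-like level of Thbd went from 0.153 (0.119 to 0.193) to 0.923 (0.811 to 1.05), a ratio of 6.04 (4.62 to 7.99). Kupffer-like cells had 0.227 and 0.696 and stellate-like cells 0.667 and 0.939, so both were near or below the lymphoid level in the fibrosis library. Portal fibroblast-like cells (43 and 61 cells) went the other way, from 2.06 (1.61 to 2.59) to 0.348 (0.249 to 0.474), a ratio of 0.169 (0.112 to 0.253). One normal cell alone held 22 of the 72 Thbd UMIs, 18 of 43 cells had any, and without the 3 cells with most UMIs in each library the ratio was 0.325 (0.187 to 0.567). Mesothelial-like cells went from 1.58 (1.27 to 1.95) to 0.915 (0.725 to 1.14).

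Procr, the partner of Thbd on vessel walls, was scarce. In the normal library it was 0.20 (0.148 to 0.264) in portal and 0.182 (0.128 to 0.251) in central endothelial-like cells and 0.0709 (0.0534 to 0.0923) over all LSECs. Its normal vessel sub-clusters stood higher, at 0.431 (0.282 to 0.631) for portal vessel-like and 0.401 (0.254 to 0.602) for central vein-like cells. The fibrosis levels were 0.165 (0.0899 to 0.276), 0.266 (0.198 to 0.349) and 0.0752 (0.0578 to 0.0962), and for the whole classes each pair overlapped in its intervals. Against the normal portal vessel-like sub-cluster alone, the portal ratio was 0.382 (0.184 to 0.759), from 26 and 14 UMIs. Against the central vein-like one the central ratio was 0.663 (0.398 to 1.14). The portal ratio rested on few cells. With the cells holding most Procr UMIs left out, as for Thbd above, it was 0.782 (0.301 to 2.05), from 10 and 11 UMIs. The normal portal vessel-like level was then 0.171, and the central ratio 0.502 (0.249 to 1.05). In mesothelial-like cells the level was 0.413 (0.262 to 0.619) from 23 UMIs and 0.194 (0.113 to 0.311) from 17 UMIs, a ratio of 0.471 (0.236 to 0.921).

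In stellate-like, portal fibroblast-like and Kupffer-like cells more Procr was counted in the fibrosis library. Stellate-like cells gave 2 UMIs in the normal library and 58 in the fibrosis library (0.0430 and 0.345), portal fibroblast-like cells 1 and 34 (0.0286 and 0.296), and Kupffer-like cells 24 and 65 (0.143 and 0.283). The Kupffer-like ratio was 1.97 (1.22 to 3.29). Fewer Procr UMIs were counted in the fibrosis plasmacytoid dendritic-like (26 and 8, levels of 0.265 and 0.134), type 2 dendritic-like (22 and 4, 0.181 and 0.0614) and type 1 dendritic-like cells (8 and 3, 0.0803 and 0.0357). Most of the normal type 2 UMIs lay in a sub-cluster of 66 cells led by Ccl17. The fibrosis type 2 class was 1 sub-cluster of 116 cells led by Cd209a, so the cells compared differed. The lymphoid-like level was 0.0129 and 0.0534. Within the fibrosis stellate-like cells, Procr was 0.637 (0.423 to 0.921) in the sub-cluster of 59 cells led by Tmem56 and Hhip.

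**Figure D2:**
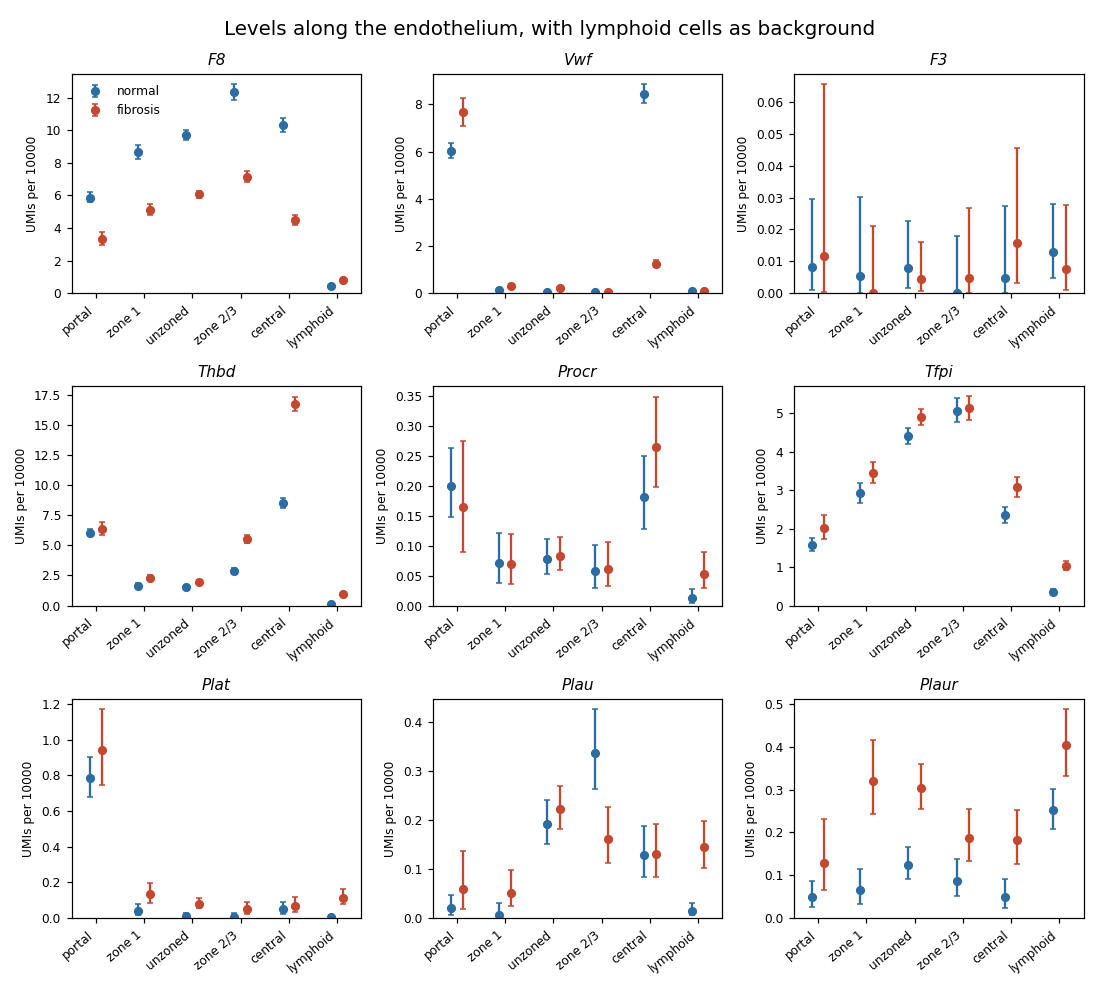
Levels of the 9 genes in the endothelial classes from portal to central and in lymphoid-like cells of the normal and fibrosis libraries, in UMIs per 10000 UMIs of the class with exact Poisson 95% intervals. F8 is lower in every fibrosis endothelial class, Vwf goes from 8.44 to 1.25 in the central class, and Thbd goes there from 8.48 to 16.7.

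Tfpi followed F8 across the normal sinusoid but not between the libraries. The normal level was 5.08 (4.78 to 5.39) in zone 2/3-like, 4.42 (4.21 to 4.63) in unzoned and 2.92 (2.68 to 3.18) in zone 1-like LSECs, and 2.35 (2.14 to 2.57) in central and 1.58 (1.43 to 1.75) in portal endothelial-like cells. In fibrosis these were 5.13 (4.83 to 5.45), 4.90 (4.70 to 5.11), 3.45 (3.18 to 3.74), 3.08 (2.84 to 3.34) and 2.02 (1.73 to 2.35), in the same order. The ratio over all LSECs was 1.10 (1.05 to 1.15), with the highest in central endothelial-like cells at 1.31 (1.16 to 1.48) and the lowest in zone 2/3-like LSECs at 1.01 (0.927 to 1.10). With only the normal vessel sub-clusters as the base, the ratio was 2.15 (1.71 to 2.75) for central vein-like cells (1.43 in the normal library) and 1.67 (1.26 to 2.23) for portal vessel-like cells (1.21). Stellate-like cells (1.14 and 1.19) and mesothelial-like cells (1.06 and 1.17) held Tfpi above the lymphoid level of the normal library (0.366) and close to that of the fibrosis library (1.04). The lymphoid-like ratio of Tfpi was 2.85 (2.34 to 3.47). In the LSEC zones and the whole portal class, Tfpi differed between the libraries by less than it did in lymphoid-like cells. With the lymphoid-like level subtracted, their ratios therefore turn in direction.

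F3, the gene Tfpi opposes, was outside the endothelium. Only 7 F3 UMIs were counted in all 2040 normal endothelial-like cells and 7 in all 1383 fibrosis ones (0.00571 and 0.00628). Mesothelial-like cells, the covering of the liver surface, had the highest normal level, at 1.26 (0.979 to 1.59) from 70 UMIs, and 25 of 44 cells had a UMI. In the fibrosis library this level was 0.297 (0.194 to 0.436) from 26 UMIs, a ratio of 0.237 (0.145 to 0.376), with a UMI in 15 of 48 cells. Portal fibroblast-like cells went from 0.514 (0.305 to 0.813) to 0.0523 (0.0192 to 0.114), a ratio of 0.102 (0.0330 to 0.267). The lymphoid-like levels were 0.0129 and 0.00763.

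The mesothelial-like classes held their 10 mesothelial markers in both libraries, none of them at 0, with a summed level of 221.4 in normal and 118.1 in fibrosis cells. Cycling markers summed to 0.43 and 4.97 in the same classes. Whether these differences have a part in the F3 ratio was not tested. Among myeloid cells F3 was above the lymphoid level in neutrophil-like cells, at 0.118 (0.0383 to 0.276) from 5 UMIs and 0.308 (0.154 to 0.552) from 11 UMIs, with overlapping intervals. In the other myeloid classes of both libraries at most 3 UMIs were counted. Normal zone 2/3-like LSECs had 0 F3 UMIs, which allows a level of up to 0.0145 at a limit of 3 counts, and in the smaller classes with 0 the limit was higher, for example 0.0423 in normal monocyte-like and 0.0460 in fibrosis type 2 dendritic-like cells.

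Plat was highest in portal fibroblast-like, mesothelial-like and portal endothelial-like cells of the normal library, and its level in stellate-like cells was higher in the fibrosis library. In stellate-like cells it went from 5 UMIs (0.108, 0.0349 to 0.251) to 392 UMIs (2.33, 2.10 to 2.57), a ratio of 21.6 (9.20 to 67.0). At least 1 Plat UMI was found in 5 of 65 normal and 80 of 140 fibrosis stellate-like cells. After thinning to 1000 UMIs the shares were 1.54% (0.0389 to 8.28) and 10.0% (5.58 to 16.2), against 0.0750% and 1.10% of lymphoid-like cells, and their intervals overlapped. The lymphoid-like level was 0.00430 (0.000521 to 0.0155) and 0.115 (0.0772 to 0.163), so it was also higher in the fibrosis library but far below the stellate-like level. The part of the chemokine genes and NK and T cell markers of the normal class in this ratio was not tested.

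Within the fibrosis stellate-like cells Plat stood at 2.99 (2.70 to 3.31) in the sub-cluster of 81 cells led by Ankrd1 and at 0.455 (0.278 to 0.703) in the sub-cluster of 59 cells led by Tmem56 and Hhip. Beside Plat, the fibrillar collagen Col1a1 went from 2.07 to 90.5 in stellate-like cells and the smooth muscle actin Acta2 from 0.925 to 9.48, while the retinol-storing enzyme Lrat was 15.4 in both libraries. These genes were chosen after their values were seen. Plat in portal fibroblast-like cells was 1.94 (1.51 to 2.46) and 3.26 (2.94 to 3.61), a ratio of 1.68 (1.29 to 2.20), and in mesothelial-like cells 1.04 (0.790 to 1.34) and 0.640 (0.484 to 0.831).

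On the endothelial side Plat was 0.786 (0.679 to 0.905) in normal and 0.940 (0.745 to 1.17) in fibrosis portal endothelial-like cells, a ratio of 1.20 (0.910 to 1.56). Against the 1.13 of the normal portal vessel-like sub-cluster alone the ratio was 0.834 (0.596 to 1.17), and both intervals hold 1. Central endothelial-like cells held only 0.0491 (0.0236 to 0.0904) and 0.0678 (0.0361 to 0.116), so Vwf marked both kinds of vessel while Plat marked the portal kind. LSECs had 12 and 69 Plat UMIs (0.0155 and 0.0824), the fibrosis value being below the lymphoid-like level.

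Plau was low in all classes and, among the normal endothelial classes, highest in zone 2/3-like LSECs. It was 0.338 (0.263 to 0.426) in zone 2/3-like, 0.192 (0.151 to 0.241) in unzoned and 0.00544 (1 UMI) in zone 1-like LSECs. Central endothelial-like cells held 0.128 (0.0835 to 0.187), below zone 2/3-like LSECs, with 25 of their 26 UMIs in the central-side sub-cluster (0.171) and 1 in the central vein-like one, and portal endothelial-like cells held 0.0204 (5 UMIs), against 0.0151 (0.00605 to 0.0310) in lymphoid-like cells. The fibrosis levels of the LSEC zones in the same order were 0.162 (0.112 to 0.227), 0.223 (0.181 to 0.271) and 0.0517 (0.0236 to 0.0981), that of the central class was 0.13, a ratio of 1.02 (0.565 to 1.84), and the lymphoid-like level was 0.145 (0.103 to 0.199). The zone 2/3-like ratio was 0.480 (0.309 to 0.734), and the fibrosis level there overlapped that of lymphoid-like cells in its interval. In the fibrosis library Plau was highest in the scar-associated macrophage-like cells, at 0.302 (0.252 to 0.359) with a UMI in 62 of 212 cells. Kupffer-like cells had 0.119 (0.0730 to 0.185) and 0.183 (0.132 to 0.247).

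Plaur was highest in some of the myeloid classes, whereas Kupffer-like and type 1 dendritic-like cells lay below the lymphoid-like levels given below. Neutrophil-like cells held the most in both libraries, at 2.69 (2.22 to 3.23) and 3.06 (2.51 to 3.69), a ratio of 1.14 (0.865 to 1.49). Plasmacytoid dendritic-like cells had 1.91 (1.64 to 2.20) and 1.38 (1.09 to 1.71). Monocyte-like cells went from 1.59 (1.31 to 1.92) to 0.680 (0.577 to 0.796), a ratio of 0.427 (0.333 to 0.549). By sub-cluster the fibrosis level was 0.459 (0.366 to 0.569) in the classical cells, a ratio of 0.288 (0.215 to 0.386), but 1.61 (1.25 to 2.03) in the 107 non-classical cells, the same as the normal level within the intervals. The normal cells were 1 sub-cluster, named classical, whose leading genes Ace, Tppp3 and Vcan also led the fibrosis non-classical one. With noise genes left among the variable genes, where 105 normal and 98 fibrosis cells were named monocyte-like, the ratio was 0.962. Scar-associated macrophage-like cells held 0.505 (0.440 to 0.578). Type 2 dendritic-like cells had 0.641 (0.506 to 0.799) and 0.353 (0.224 to 0.529), Kupffer-like cells 0.102 (0.0592 to 0.163) and 0.143 (0.0988 to 0.202), and type 1 dendritic-like cells 0.0301 and 0.0594.

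In LSECs the Plaur level was 0.101 (0.0795 to 0.126) and 0.278 (0.244 to 0.316), a ratio of 2.77 (2.13 to 3.62), and in unzoned LSECs the ratio was 2.44 (1.74 to 3.46). Both LSEC levels lay under those of lymphoid-like cells, at 0.252 (0.208 to 0.302) and 0.404 (0.331 to 0.489). Mesothelial-like cells had 18 and 14 UMIs (0.323 and 0.160), a ratio of 0.496 whose interval (0.228 to 1.06) holds 1.

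**Figure D3:**
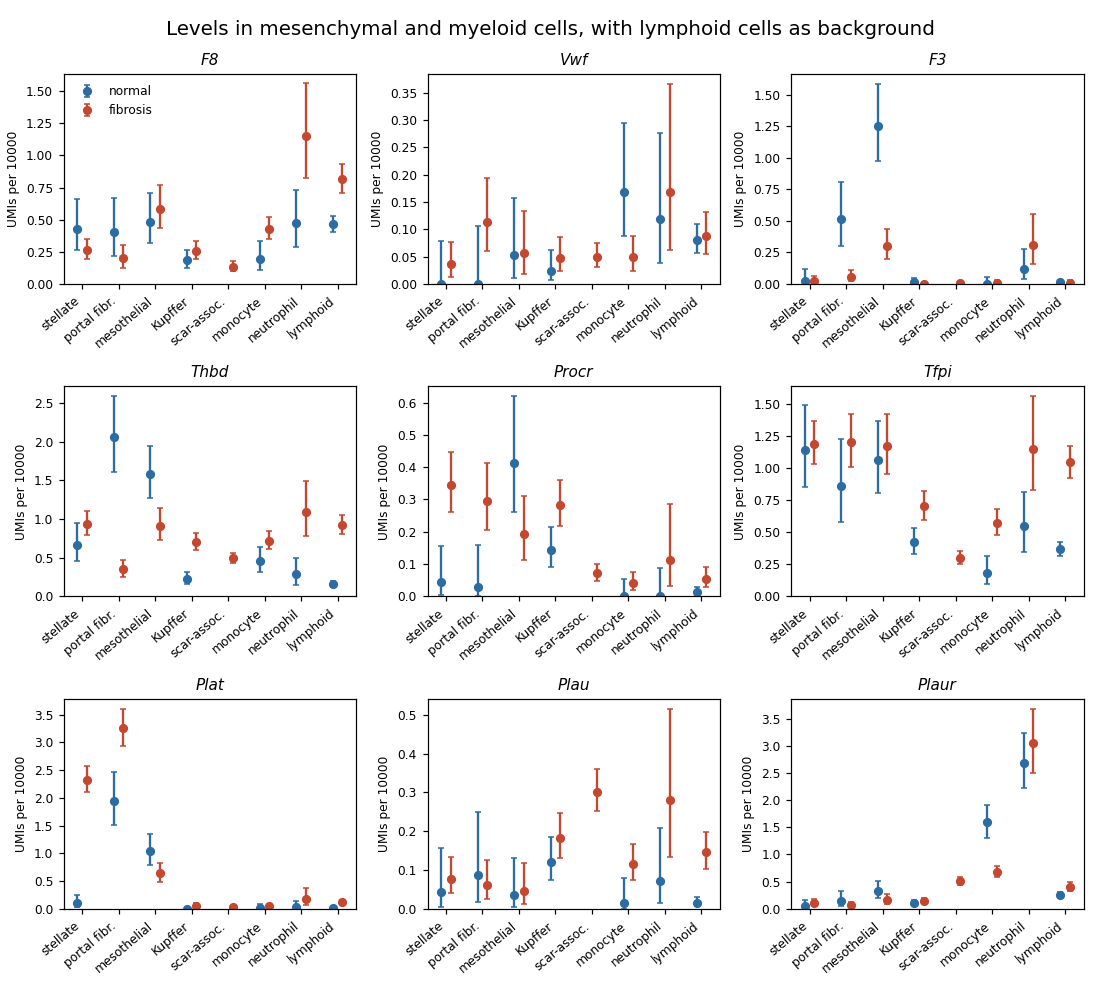
Levels of the 9 genes in 4 myeloid, 3 mesenchymal and mesothelial, and the lymphoid-like classes of the normal and fibrosis libraries, in UMIs per 10000 UMIs of the class with exact Poisson 95% intervals. Plat is high in the fibrosis stellate-like cells (2.33 against 0.108), F3 in the normal mesothelial-like cells (1.26), and Plaur in the neutrophil-like cells (2.69 and 3.06).

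A gene was counted as higher or lower in a class when its ratio of fibrosis to normal was at least 2 or at most 0.5, among genes with a mean level of at least 0.2 and at least 20 UMIs. These are rules of size, not tests. Over 13 endothelial, stellate-like, mesothelial-like and myeloid classes named in both libraries, the 9 genes gave 57 measured ratios, 15 of at least 2 and 7 of at most 0.5, beside 7.59% and 5.76% of the ratios of all genes. The share of all genes past the same limits is given with each class as its background. When the lymphoid-like level of each library was subtracted, 36 ratios had a level above 0 in both libraries, with 3 of at least 2 and 11 of at most 0.5, beside 15.2% and 21.4% for all genes. Per cell instead of per UMI, 20 of the 57 were at least 2 and 3 at most 0.5, beside 15.3% and 5.38%. The balance of higher and lower thus moved with the scale, for all genes as well as for the 9.

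In portal endothelial-like cells none of the 5 members measured passed either limit (background 3.1% of all genes higher and 4.54% lower), and against the normal vessel sub-cluster alone 1 of 6, Procr, was lower (6.51% and 6.16%). Without the 3 cells with most Procr UMIs that ratio was 0.782 and did not pass. In zone 1-like LSECs 1 of 4 was higher, Vwf (3.18% and 4.42%). In unzoned LSECs 1 of 5 was higher, Plaur (3.05% and 4.18%). Among zone 2/3-like LSECs 1 of 4 was lower, Plau (3.23% and 3.74%). Central endothelial-like cells had 2 of 5 lower, F8 and Vwf (3.92% and 4.99%), while against the normal central vein-like sub-cluster alone Thbd and Tfpi were higher and Vwf lower of 5 (10.1% and 8.35%). Against the normal central-side sub-cluster alone, Vwf at 0.851 did not pass. Stellate-like cells had 1 of 4 higher, Plat (7.06% and 6.88%). Mesothelial-like cells had 3 of 7 lower, F3, Procr and Plaur (11% and 7.23%), but without the 3 cells with most UMIs of the gene Procr (0.549) and Plaur (0.658) did not pass. Portal fibroblast-like cells, not among the 13 classes, had 2 of 5 lower, F3 and Thbd (11.1% and 9.34%).

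Among myeloid classes, Kupffer-like cells had 1 of 4 higher, Thbd (background 3.44% higher and 3.51% lower). Monocyte-like cells had F8 and Tfpi higher and Plaur lower, of 4 measured (10.5% and 8.65%), and in the classical sub-cluster alone F8 stood at 1.8 and did not pass. The fibrosis levels of F8 (0.428) and Tfpi (0.574) in monocyte-like cells lay below the lymphoid-like ones. Type 1 dendritic-like cells had none of 3 past either limit (12.3% and 4.54%). The same members, F8, Thbd and Tfpi, were higher in type 2 dendritic-like (8.48% and 7.19%), plasmacytoid dendritic-like (10.3% and 6.01%) and neutrophil-like cells (22.0% and 9.69%), each of 4 measured. Thbd and Tfpi were also higher in lymphoid-like cells, of 4 measured (9.23% and 6.56%), and the fibrosis levels of F8, Thbd and Tfpi in these dendritic-like and neutrophil-like classes lay between 0.521 and 1.15, against lymphoid-like levels of 0.813 (F8), 0.923 (Thbd) and 1.04 (Tfpi). Only the neutrophil-like levels of F8, Thbd and Tfpi exceeded the lymphoid-like ones in the fibrosis library, and each of those 3 pairs of intervals overlapped. Several of these calls did not hold under every alternative. Per cell, F8 (1.75) and Tfpi (1.52) in neutrophil-like and Tfpi (1.96) in plasmacytoid dendritic-like cells were below 2, as were Tfpi in neutrophil-like cells with a 5% mitochondrial limit (1.87) and F8 in plasmacytoid dendritic-like cells without the highest doublet scores (1.88). After subtraction of the lymphoid-like level these ratios were not defined in type 2 and plasmacytoid dendritic-like cells, whose fibrosis levels lay below the lymphoid-like ones, and the neutrophil-like ratios were 44.1 for F8, 1.30 for Thbd and 0.609 for Tfpi. The 44.1 has almost no base, since normal neutrophil-like F8, from 20 UMIs, was 1.02 times (0.609 to 1.61) the lymphoid-like level. It is among the ratios of at least 2 counted on that scale.

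**Figure D4:**
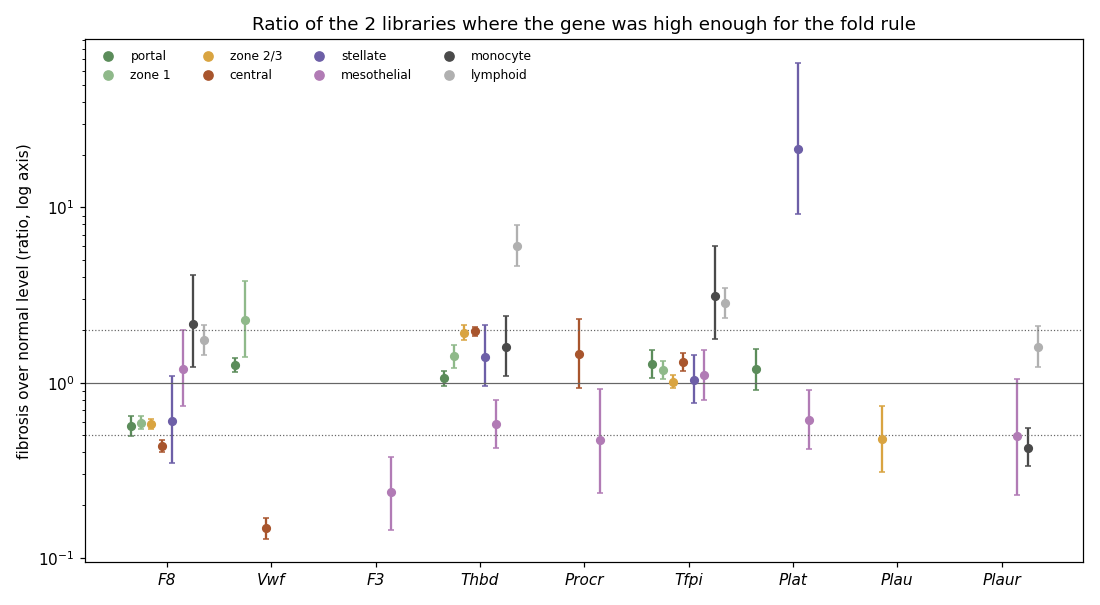
Ratio of the fibrosis to the normal level (log axis) of each of the 9 genes in 8 classes, given by colour, where the gene passed the limits on level and UMIs. Bars are exact conditional 95% intervals for counting error, dotted lines mark 2 and 0.5, and the points range from Vwf in central endothelial-like cells (0.148) to Plat in stellate-like cells (21.6).

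The 47 further genes of the pathway were counted by the same limits. Over all LSECs 23 of the 47 were measured, 2 were higher and 10 lower, beside 2.73% and 3.81% of all genes. The higher ones were Anxa2, a plasminogen receptor (1.69 and 3.5, ratio 2.08), and Lrp1, which clears protease complexes (0.296 and 0.684, ratio 2.31). Both were also higher in lymphoid-like cells, at 2.30 and 3.46. The lower ones were F2, F10, F12, the fibrinogen chains Fga, Fgb and Fgg, Kng1, Serpinc1, Plg and Serpinf2, most of which hepatocytes are known to make. Fgb, for example, was 3.62 (3.48 to 3.75) in normal and 0.227 (0.196 to 0.262) in fibrosis LSECs, and 5.86 and 0.507 in lymphoid-like cells, beside the lower summed hepatocyte markers given above, whose part in this was not tested. The receptor that takes factor VIII out of the endoplasmic reticulum differed little, with Lman1 at 1.53 and 1.44 and its partner Mcfd2 at 2.21 and 3.00 in LSECs, ratios of 0.937 (0.864 to 1.02) and 1.36 (1.27 to 1.44).

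By zone, the list gave 2 higher and 9 lower of 22 measured in zone 1-like LSECs (Anxa2 and Lrp1 higher), 2 and 11 of 24 in unzoned LSECs (the same pair higher), and 1 and 7 of 20 in zone 2/3-like LSECs (Lrp1 higher). The shares of all genes were 3.18% and 4.42% in zone 1-like, 3.05% and 4.18% in unzoned, and 3.23% and 3.74% in zone 2/3-like LSECs. F2, Fga, Fgb, Fgg, Kng1, Serpinc1 and Plg were lower in each of them. F10 and Serpinf2 were also lower in zone 1-like and unzoned LSECs, and F12 and Cpb2 in unzoned LSECs.

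In stellate-like cells 22 of the list were measured, with 3 higher and 7 lower, beside 7.06% and 6.88% of all genes. Among the higher genes were Serpine2, a protease inhibitor that acts on thrombin and the plasminogen activators, and the prostacyclin synthase Ptgis. Serpine2 went from 0.129 (0.0474 to 0.281) to 2.35 (2.13 to 2.60), a ratio of 18.2 (8.30 to 50.0). The activator Plat and the inhibitor Serpine2 were therefore both higher in the same class. Ptgis went from 0.215 to 1.03. The lower genes were F2, Fga, Fgb, Fgg, Kng1, Serpinc1 and Plg.

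Kupffer-like cells had 2 of 20 higher, the thrombin receptor F2r (0.137 and 0.335, against 0.826 and 1.35 in lymphoid-like cells) and Anxa2, and 9 lower, namely F2, F10, Fga, Fgb, Fgg, Kng1, Serpinc1, Plg and Serpinf2. The shares of all genes there were 3.44% and 3.51%. Monocyte-like cells had 4 of 24 higher (F2r, Mcfd2, Entpd1 and Ptgs1) and 12 lower, beside 10.5% and 8.65% of all genes. Besides other hepatocyte-made genes, Serpinb2, an inhibitor of urokinase, was lower (0.930, 0.720 to 1.18, and 0.0707, 0.0404 to 0.115, a ratio of 0.0759). So were S100a10, the partner of Anxa2, and F10 (1.27 and 0.411), which hepatocytes are also known to make. S100a10 and F10 were also lower in lymphoid-like cells.

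In the remaining myeloid classes the list gave 3 higher (Pros1, Lrp1 and Ptgs1) and 7 lower of 19 in type 1 dendritic-like cells, and 2 higher (F2r and Ptgs1) and 8 lower of 22 in type 2 dendritic-like cells. Plasmacytoid dendritic-like cells had 5 higher (Pros1, F2r, Lrp1, Mcfd2 and Ptgs1) and 10 lower of 23. Neutrophil-like cells had 6 higher (Pros1, F2r, Plgrkt, Lrp1, Nos3 and Ptgs1) and 13 lower of 28. The shares of all genes were 12.3% and 4.54% in type 1 and 8.48% and 7.19% in type 2 dendritic-like cells. They were 10.3% and 6.01% in plasmacytoid dendritic-like and 22.0% and 9.69% in neutrophil-like cells. The higher genes of the list in type 2 dendritic-like and neutrophil-like cells were thus close to these shares. In each of these 4 classes the lower genes included F2, Fga, Fgb, Fgg, Kng1, Serpinc1 and Plg. In lymphoid-like cells the same list gave 5 higher (Pros1, Anxa2, Lrp1, Entpd1 and Ptgs1) and 15 lower of 26, beside 9.23% and 6.56% of all genes.

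Across 34 points, each a class in 1 library with at least 20 cells in both, the genes whose level followed each member most closely were found among 5692 genes by Pearson correlation of log2(level + 0.1). The points share 2 libraries and differ in depth, so these values are a description. F8 followed the endothelial genes Ptprb (0.981), Ushbp1 (0.977) and Adgrf5 (0.977), and Tfpi followed Inpp5a (0.972), Arhgap23 (0.965) and Prickle1 (0.962). Vwf was most like Edn1 (0.891), Cyp1a1 (0.842) and Selp (0.818), and Thbd most like Jam2 (0.904), Gja4 (0.899) and Adam15 (0.899). Plat followed the matrix genes Lox (0.970), Fbln5 (0.924) and Fbn1 (0.913), and F3 followed Sema3c (0.915), Ppl (0.899) and Sh2d4a (0.899). Plaur was close to Gpcpd1 (0.844) and Fgr (0.838), Plau like Drap1 (0.730), Atp6v0d1 (0.717) and Arrb2 (0.711), and Procr like Mras (0.709), P4ha1 (0.601) and Dst (0.590). Among the 9 genes themselves, F8 and Tfpi were the closest pair (0.866), followed by Thbd and Tfpi (0.803) and F8 and Thbd (0.778).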

How the data were processed

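Gene expression was measured by droplet-based 3′ single-cell sequencing. Per the labels the authors processed the reads with Cell Ranger 3.0.1 against mm10 and deposited UMI counts, 1 table of genes by cells per library. The tables held 8130 normal and 6437 fibrosis cells, with 44062632 and 53288463 UMIs and medians of 4144.5 and 5619 UMIs per cell. The libraries shared 15 barcodes. No mitochondrial filter had been applied, since 659 and 305 cells had a mitochondrial share of 10% or more. These were removed, after the study's methods, which also ask for more than 200 genes per cell.

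Each library was clustered separately in scanpy 1.11.5 (2000 variable genes, 10 principal components, 20 neighbours, Leiden resolution 0.8), and lineages were clustered again. A cluster was named from its top 10 genes by fold and marker lists. Several naming rules were run, and the fold limits, the demand for at least 2 markers among the top genes (1 in the endothelium), the rule for mixed clusters, the removal of noise genes, and the joining of vessel with adjoining sub-clusters and of monocyte classes were set after the clusters were seen. The 9 genes and all lists were chosen with earlier results of these data known. Rebuilt names may differ from those of the study.

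UMIs were summed per class and library and divided by the class total. Levels have exact Poisson intervals, ratios exact conditional intervals and shares Clopper-Pearson intervals, at 95%, covering counting error only. For shares, cells were thinned to 1000 UMIs and shallower ones left out (12 and 2 lymphoid-like cells in the fibrosis and normal libraries, and 32 fibrosis neutrophil-like cells). The methods state that Scrublet served to test for doublets and remove them, and the cell numbers of the tables equal those the study clustered. Run here, it marked 1 cell per library (0.0134% and 0.0163%) and its calls were not used. No further cell was removed as a doublet, and an alternative left out the top 5% of cells by doublet score (373 and 306). Genes to name were all 9 members, pathway genes past a fold of 2 in sinusoidal, stellate and myeloid classes, and the 3 genes most correlated with each member. Some genes that these rules select are not reported here. GENCODE, on the assembly GRCm38, gave the gene positions. The ratio and interval code was tested on simulated data. The values were recomputed with other choices of the mitochondrial limit, resolution and thinning depth, as UMIs per cell, as means over cells, with the lymphoid-like level subtracted, without the 3 cells with most UMIs of a gene, and with the genes not held out. Those chosen after the data were seen were a zone list fold of 0.25, noise genes left in, vessel sub-clusters alone, the normal sub-clusters that adjoin them alone, normal LSECs without 2 sub-clusters led by hepatocyte genes, and classical monocytes alone. numpy 2.4.6, scipy 1.17.1 and pandas 2.3.3 were used.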

Additional observations from a re-analysis of the deposited data

How the results depend on the processing

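With 1 library per condition no replicate can be left out, and no paired analysis was possible because each condition has 1 mouse. With a mitochondrial limit of 5%, 6 ratios of the 9 genes were at least 2 in place of 15 and 5 at most 0.5 in place of 7, and for 10 of 18 library-and-gene pairs the class with the highest level was unchanged. 6 of the 13 classes then gave no ratio because they were not named in both libraries, among them the central endothelial-like, stellate-like and mesothelial-like cells and the zones, and the fibrosis level of Thbd in central endothelial-like cells was 7.42. Zone 2/3-like LSECs were also unnamed in the fibrosis library at resolution 1.5, with the 9 genes and the list not held out, and with noise genes left in. Subtracting the lymphoid-like level gave 3 ratios of at least 2 and 11 of at most 0.5, and UMIs per cell gave 3 of at most 0.5. Among the ratios past the limits, 2 turned in direction, with Plaur in mesothelial-like cells at 1.08 as a mean over cells and Tfpi in neutrophil-like cells at 0.609 after subtraction of the lymphoid-like level. Of the ratios not past the limits, those of Vwf (1.27 to 0.592), Plat (1.20 to 0.834) and Thbd (1.06 to 0.916) in portal and of Procr (1.46 to 0.663) in central endothelial-like cells also turned with vessel sub-clusters alone. Others turned after subtraction of the lymphoid-like level, among them Tfpi in the LSEC zones and Tfpi and Thbd in portal endothelial-like cells. Thbd in zone 1-like and unzoned LSECs turned as well. Over the alternatives that gave a value, Vwf in central endothelial-like cells ranged from 0.0477 (normal vessel sub-cluster as the base) to 0.851 (normal adjoining sub-cluster), F8 there from 0.374 to 0.758, Plat in stellate-like cells from 12.9 to 44.9, F3 in mesothelial-like cells from 0.144 to 0.341, Plau in zone 2/3-like LSECs from 0.0532 to 0.647, and Plaur in monocyte-like cells from 0.205 to 0.962. Shares of cells with a UMI moved with the depth they were thinned to. Low levels, those of F3, Procr and Plau above all, rest on few UMIs, and the lymphoid-like levels set beside them differed between the libraries. Free RNA itself was not measured.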

Other observations

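Outside the classes described, F3 had its other main site in cholangiocyte-like cells, which line the bile ducts, at 0.621 (0.537 to 0.715) in 235 normal and 0.911 (0.777 to 1.06) in 90 fibrosis cells, a ratio of 1.47 (1.18 to 1.81). The bile duct cells thus held more F3 per UMI in the fibrosis library, while mesothelial-like and portal fibroblast-like cells held less. Lymphatic endothelial-like cells, 14 in the normal library, had 7 Procr UMIs, a level of 0.723 (0.291 to 1.49). Among myeloid cells Procr was 0.449 (0.281 to 0.679) in a normal type 2 dendritic-like sub-cluster of 66 cells led by Ccl17 and Il4i1, and 0.447 (0.315 to 0.616) in an unnamed fibrosis sub-cluster of 97 cells led by Fn1 and Saa3. The lymphoid-like levels of Procr were 0.0129 and 0.0534.

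Stellate-like cells held Adamts13, the protease that trims Vwf, at 1.01 (0.743 to 1.34) in the normal and 0.659 (0.542 to 0.794) in the fibrosis library. Counted over every kept cell, the level of Vwf went from 1.07 to 0.313 and that of F8 from 3.94 to 2.38, while Thbd went from 1.56 to 2.33 and Plat from 0.0991 to 0.361. These whole-library levels move with the make-up of each library as well as with the level per class, and the 2 cannot be told apart in them.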
